A study of Zea mays with 28 samples.

Results

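The regions described here are places in the genome of maize embryos where ZmDDM1A and ZmAGO4 were called together while ZmDDM1B was not. They were chosen from the peak lists themselves. Peaks of the 6 WT lists (ZmDDM1A, ZmDDM1B and ZmAGO4, replicates 1 and 2) were merged wherever they shared at least 1 bp, and a merged region was kept when it held a peak of both ZmDDM1A lists and both ZmAGO4 lists and no peak of either ZmDDM1B list. This gave 1423 regions out of 122155 merged regions, or 1.16%. They covered 1989 kb in all. Peak presence in the WT lists is therefore the choice itself, and the WT folds at these regions are given as a description with no test.

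DDM1 proteins are chromatin remodellers of the SNF2 type, which move nucleosomes and are needed to keep DNA methylated in plants, above all in transposons. ZmDDM1A and ZmDDM1B are maize paralogues of DDM1, and each had its own antibody here. AGO4 is an Argonaute protein of RNA-directed DNA methylation, the pathway in which small interfering RNAs guide DNA methyltransferases to matching sequence. In maize this pathway is known to act near genes, at the borders between open chromatin and silenced transposons. By its title the study concerns DDM1 and this pathway on active chromatin. Regions with 1 paralogue and ZmAGO4 but without the other paralogue bear on how far the paralogues were called at the same places.

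The embryos were of the inbred strain W22 and were taken 18 days after pollination. The groups used were ZmDDM1A ChIP in zmddm1a embryos, ZmDDM1B ChIP in zmddm1b embryos, and ZmDDM1A, ZmDDM1B and ZmAGO4 ChIP in WT embryos, with 2 libraries each. The peak names call the zmddm1a libraries aaBB and the zmddm1b libraries AAbb, and the labels do not say what the mutant alleles are. All 3 antibodies were made by the submitters' laboratory. Each group has replicates 1 and 2, and no label ties them to separate plants, so their spread may be technical. No region is a replicate of another, and no test over regions was made.

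The lists do not give read numbers, but the coverage behind each peak was recovered from its fold and p-value. The lowest background of a list, which rises with the depth of the library, was 3.41 and 3.57 fragments for ZmDDM1A, 2.79 and 2.73 for ZmDDM1B, and 7.72 and 6.93 for ZmAGO4. By this measure the ZmDDM1B libraries were the shallowest of the WT set, yet their lists were longer (56570 and 53298 peaks) than those of ZmDDM1A (45957 and 45011). A region without a ZmDDM1B peak is one where neither ZmDDM1B list called a peak, and the part of depth in this was not tested. The mutant lists were short, with 817 and 883 peaks in zmddm1a and 1870 and 766 peaks in zmddm1b. Coordinates are of B73 RefGen_v4 and are counted from 1. The W22 chromatin was placed on this assembly of another inbred, and genes and sequence at the regions were not analysed here.

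Most regions called for ZmDDM1A and ZmAGO4 were called for ZmDDM1B as well. Of the 27565 merged regions with both ZmDDM1A lists and both ZmAGO4 lists, 1423 held no ZmDDM1B peak, or 5.16% (exact Clopper-Pearson 95% interval 4.90 to 5.43). A further 2027 regions (7.35%) held a peak of 1 ZmDDM1B list, and 24115 (87.5%) held peaks of both. The number and share of regions without ZmDDM1B depended on the replicates, by more than that interval spans. They were 2601 (9.44%) without ZmDDM1B replicate 1 and 2305 (8.36%) without ZmDDM1B replicate 2. They were 2586 (8.30%) without ZmDDM1A replicate 1 and 2720 (8.65%) without ZmDDM1A replicate 2. With the rule applied to the lists of 1 replicate number at a time, the mean share was 13.5%. The intervals of shares hold counting error alone, and regions near each other may share their source of signal.

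All 10 chromosomes carried such regions. Their number ran from 88 on chromosome 10 to 193 on chromosome 1. Per chromosome, the share of ZmDDM1A-and-ZmAGO4 regions without ZmDDM1B lay between 4.34% on chromosome 1 (interval 3.76 to 4.98) and 5.72% on chromosome 3 (4.92 to 6.60), and these intervals overlap. The regions were scattered: neighbours lay a median of 887536 bp apart, and 37 of the 1413 pairs of neighbours lay within 10 kb of each other. No group within 10 kb held more than 2 of them.

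Their place along the chromosomes was not used in choosing them. The first and last 20% of the chromosomes held 747 of the 1423 regions, or 52.5% (49.9 to 55.1), where 52.1% of all merged regions lay. Regions called for all 3 proteins had 55.5% there (54.8 to 56.1). By chromosome the share was higher than in the regions of all 3 proteins on 5 chromosomes and lower on 5. It was 45.6% against 55.1% on chromosome 1 and 57.1% against 53.7% on chromosome 3. The direction thus changed between chromosomes.

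ZmDDM1A was enriched less at these regions than where all 3 proteins were called. The fold enrichment of a peak is the authors' value at its summit, and the strongest peak of each library in a region was used. A single peak per ZmDDM1A and ZmAGO4 library was found in 89.7% of the 1423 regions and 71.6% of the regions of all 3 proteins. The part of taking the strongest of several peaks in the differences of fold and coverage was not tested. The median ZmDDM1A fold was 3.62 in replicate 1 and 3.55 in replicate 2 at the 1423 regions, against 4.55 and 4.47 at the 24115 regions of all 3 proteins. The log2 difference was −0.33 ± 0.0019 (SD, n = 2 libraries). It depended on the threshold by far more than this SD, and was −0.13 when only peaks with a fold of at least 4 were used. The middle 50% of the regions spanned folds of 2.98 to 4.63 in replicate 1 and 2.97 to 4.55 in replicate 2. At the regions of all 3 proteins the middle 50% spanned 3.64 to 5.73 and 3.55 to 5.70, so both sets overlap widely. Split by chromosome, the median of the smaller ZmDDM1A fold was the lower one on all 10, and so was that of the smaller ZmAGO4 fold. The highest ZmDDM1A folds of the 1423 regions were 54.2 and 52.3, above those of the regions of all 3 proteins, which reached 44.4 and 42.9.

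ZmAGO4 folds were lower too under the rule as given. The median was 7.88 and 7.90 at the 1423 regions, against 9.27 and 9.52 at the regions of all 3 proteins. The log2 difference was −0.25 ± 0.024 (SD, n = 2 libraries). This direction depended on how overlap was counted, since it was 0.015 when peaks had to cover 50% of a ZmDDM1A region. Regions with ZmAGO4 alone had lower ZmAGO4 folds, with medians of 5.64 and 5.71. The ZmAGO4 fold at the 1423 regions thus stood between that of ZmAGO4-only regions and that of regions of all 3 proteins in both libraries.

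**Figure D1:**
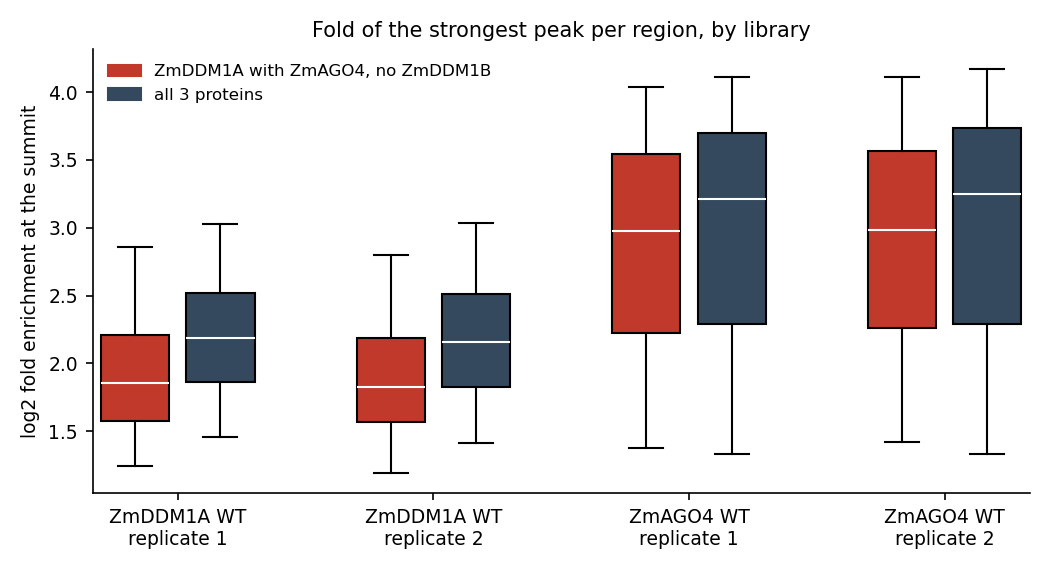
Log2 fold enrichment of the strongest peak per region in the ZmDDM1A and ZmAGO4 WT libraries, for the 1423 regions with ZmDDM1A and ZmAGO4 but no ZmDDM1B (red) and the 24115 regions of all 3 proteins (dark). Boxes span the middle 50% of regions with a white line at the median, and whiskers run over the middle 90%. The red medians lie below the dark ones in all 4 libraries, and the boxes overlap.

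Regions without ZmDDM1B stood closer to those with 1 ZmDDM1B list. The ZmDDM1A medians were 3.62 and 3.55 at the 1423 regions, against 3.71 and 3.62 at the 2027 regions with 1 list, a log2 difference of −0.03 ± 0.0050 (SD, n = 2 libraries). The ZmAGO4 medians were 7.88 and 7.90, against 8.08 and 8.31, a log2 difference of −0.05 ± 0.025. The single ZmDDM1B peaks at these 2027 regions were weak, with a median fold of 3.82, against 5.48 and 5.35 at the regions of all 3 proteins. They came from replicate 1 in 1163 regions and from replicate 2 in 864.

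The peaks themselves were smaller too. The ZmDDM1A peaks at the 1423 regions had a median width of 292 bp in replicate 1 and 295 bp in replicate 2, against 465 and 488 bp at the regions of all 3 proteins. The ZmAGO4 peaks were 1038 and 1024 bp wide, against 1360 and 1328 bp. As merged, they measured 1182 bp at the median and those of all 3 proteins 1613 bp, and they were narrower on all 10 chromosomes. A merged region grows with each list that has a peak in it, so the rule itself bears on width. In 89.7% of the 1423 regions each ZmDDM1A and ZmAGO4 library had a single peak, against 71.6% of the regions of all 3 proteins.

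The coverage behind the folds was lower as well. It was taken at the strongest peak of each library in a region. A median of 34 and 35 fragments lay over the ZmDDM1A summits of the 1423 regions, against 51 and 52 at the regions of all 3 proteins. The local background at these summits was 8.88 and 8.69 fragments, against 10.7 and 11.3. Over the ZmAGO4 summits lay 142 and 133 fragments, against 209 and 194. The background there was 18.3 and 16.2 fragments, against 22.5 and 20.1. Both the pileup and the background were thus lower in each of the 4 libraries, and the pileup was lower by more.

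Sorting all ZmDDM1A-and-ZmAGO4 regions by the smaller of their 2 ZmDDM1A folds showed where ZmDDM1B went uncalled. In the lowest of 10 equal groups (folds of 1.37 to 2.66) 12.2% had no ZmDDM1B peak (interval 10.99 to 13.5), and in group 9 (5.21 to 6.06) 2.36% had none (1.82 to 3.00). By width, the share was 10.4% in the narrowest group (9.29 to 11.6) and 1.56% in the widest (1.13 to 2.095). Width is that of the merge of all 6 WT lists, ZmDDM1B included, so it is not independent of the ZmDDM1B call. With that limit, both orders were seen in a split by width and fold together. Among the narrowest of 3 equal groups by width the share was 12.3% for the lowest of 3 groups by ZmDDM1A fold and 4.81% for the highest, and among the widest it was 6.40% and 0.785%. By ZmAGO4 fold the shares ran less evenly, from 4.28% in the lowest group to 8.02% in group 4 and 4.21% in the highest.

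**Figure D2:**
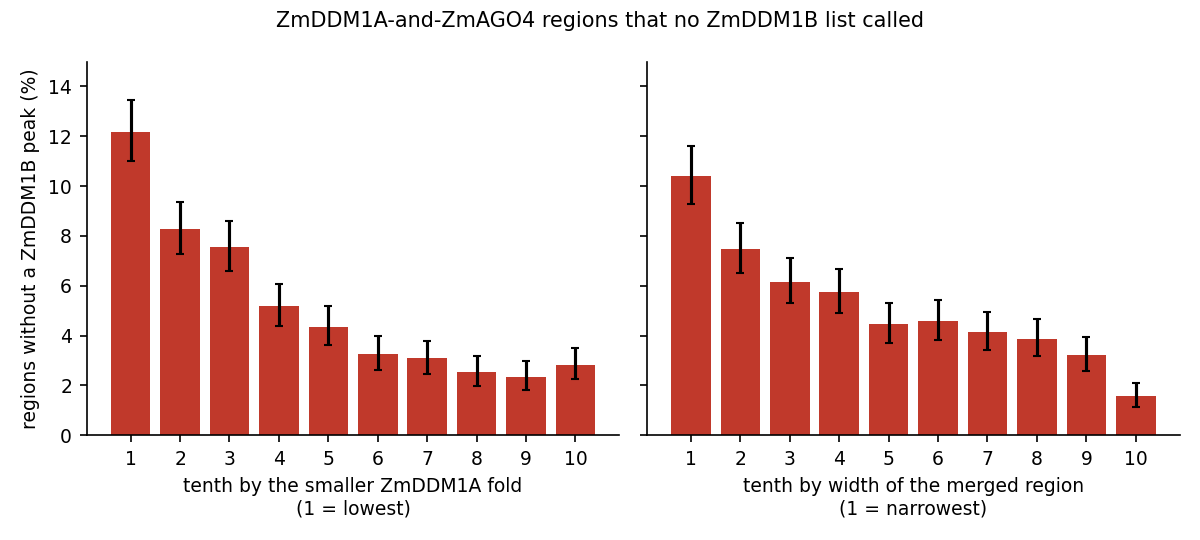
Share of the 27565 ZmDDM1A-and-ZmAGO4 regions without a ZmDDM1B peak, in 10 equal groups by the smaller ZmDDM1A fold (left) and by width (right). Bars start at 0 and error bars are exact Clopper-Pearson 95% intervals. The share is 12.2% in the lowest fold group and 10.4% in the narrowest, and it is lowest in fold group 9 (2.36%) and in the widest group (1.56%).

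The strongest ZmDDM1A regions departed from this order. Among ZmDDM1A-and-ZmAGO4 regions with a smaller ZmDDM1A fold of 6 to 10, 58 of 2647 had no ZmDDM1B peak, or 2.19% (1.67 to 2.82). At a fold of 10 or more 21 of 215 had none, or 9.77% (6.15 to 14.5). Of these 215 regions, 156 were also called with the ZmDDM1A antibody in zmddm1a embryos. The share without ZmDDM1B was 10.9% (6.48 to 16.9) among these 156 and 6.78% (1.88 to 16.5) among the other 59. The last interval is wide because it rests on 4 regions.

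The ZmDDM1A folds at these regions can be set beside the folds called for ZmDDM1B elsewhere. At backgrounds like those of the 1423 regions, 1.88 to 3.31 times the lowest background of the list, the ZmDDM1B lists held 20863 and 22292 peaks. The lowest fold among them was 2.25 in replicate 1 and 2.35 in replicate 2, and the median was 4.32 and 4.41. The smaller ZmDDM1A fold reached these lowest values at 1335 and 1284 of the 1423 regions, and it reached these medians at 278 and 257. All 1423 regions were counted here, whatever their background, and the lowest fold is an extreme of each list and so a lenient bound. Most of the regions had a ZmDDM1A fold between this bound and the median called ZmDDM1B fold. Whether the ZmDDM1B fold was lower than the ZmDDM1A fold there cannot be told from lists of called peaks. Whether folds of the different antibodies are on the same scale was not tested.

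ZmDDM1B peaks were often close by. The nearest peak of either ZmDDM1B list lay a median of 3561 bp from the edge of the region, or 6991 bp when only peaks with a fold of at least 4 were used. It lay within 1 kb of 343 regions, or 24.1% (21.9 to 26.4), and within 10 kb of 1030, or 72.4% (70.0 to 74.7). Of the 866 regions of ZmDDM1A alone, 23.6% (20.8 to 26.5) had a ZmDDM1B peak within 1 kb and 61.9% (58.6 to 65.1) within 10 kb. Of the 47472 regions of ZmAGO4 alone, 18.6% (18.3 to 19.0) had one within 1 kb and 62.5% (62.1 to 63.0) within 10 kb. The 343 regions with a near ZmDDM1B peak had ZmDDM1A folds with medians of 3.62 and 3.49, and the other 1080 had 3.61 and 3.57.

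**Figure D3:**
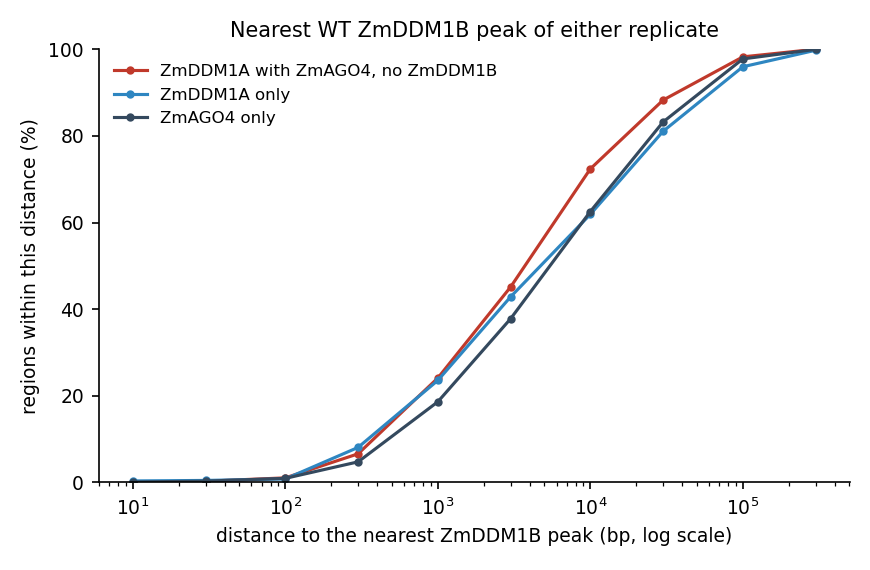
Share of regions with a ZmDDM1B peak of either WT replicate within a given distance (log scale, in bp) of their edge, for regions of ZmDDM1A with ZmAGO4 and no ZmDDM1B, of ZmDDM1A alone and of ZmAGO4 alone. At 10 kb the first curve stands at 72.4% and the other two at 61.9% and 62.5%.

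Within the regions, ZmDDM1A and ZmAGO4 summits lay close together. The distance between them had a median of 182 bp in replicate 1 and 197 bp in replicate 2, against 281 and 289 bp at the regions of all 3 proteins. The summits lay within 200 bp of each other in 52.5% and 50.6% of the 1423 regions, against 39.9% and 38.9%. A summit distance cannot exceed the width of its region, and these regions were narrower. They also more often held a single peak per ZmDDM1A and ZmAGO4 library (89.7% against 71.6%). The part of either in the shorter distance was not tested. The ZmDDM1A summit fell inside the ZmAGO4 peak in 89.7% and 87.8% of the 1423 regions, against 93.4% and 91.8%. Summits of the same protein were nearer still, with medians of 36 bp between the ZmDDM1A replicates and 26 bp between the ZmAGO4 replicates.

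The folds of the proteins varied with little relation to each other. Across the 1423 regions the log2 ZmDDM1A folds of the replicates had a Pearson r of 0.71 (Spearman 0.56), and the ZmAGO4 folds an r of 0.91 (0.91). Between the smaller ZmDDM1A fold and the smaller ZmAGO4 fold r was −0.06 (−0.08). These are values across regions of the same libraries, where each region was selected by passing the threshold in every one of the 4 lists. The ZmDDM1A r was 0.60 (0.52) without the 45 regions that zmddm1a also called.

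The mutant lists played no part in choosing the regions. A peak of either zmddm1a library met 45 of the 1423 regions, or 3.16% (2.32 to 4.21). The background is 1.06% of all merged regions and 3.54% of the 33169 regions with both ZmDDM1A lists. Under the rule as given the share was near the latter, and near the 3.57% (3.34 to 3.81) at the 24115 regions of all 3 proteins. Other sets with both ZmDDM1A lists differed. The share was 16.1% (13.7 to 18.7) at the 866 regions of ZmDDM1A alone. At the 2027 regions with both ZmAGO4 lists and 1 ZmDDM1B list it was 1.33% (0.880 to 1.93). Replicate 1 of zmddm1a met 32 regions, replicate 2 met 35, and 22 were met by both. The share moved with the threshold, to 9.92% when only peaks with a fold of at least 4 were used and to 1.51% from the union of replicates. Counting only regions covered to 50% by mutant peaks it was 0.843%, and it was 1.73% to 1.86% when 1 of the ZmDDM1A WT lists was left out of the rule. The shares of the other sets were not recomputed under these settings. At regions of all 3 proteins the share also rose with the WT fold, as given below. Of the 45 regions, 11 lay on chromosome 2 and 10 on chromosome 6, which held 174 and 106 of the 1423 regions.

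Few of these regions were called with the ZmDDM1B antibody in zmddm1b embryos. A peak of either zmddm1b library met 2 of the 1423 regions, or 0.141% (0.0170 to 0.507), against a background of 1.29% of all merged regions and 3.64% (3.41 to 3.88) at the regions of all 3 proteins. The rule keeps only places that this antibody did not call in WT embryos, so the share is not independent of the choice. Regions of ZmDDM1A alone, which also lack ZmDDM1B by rule, had 1.27% (0.636 to 2.26). Regions of ZmAGO4 alone, which lack it by rule too, had 0.0253% (0.0131 to 0.0442). Of the 2027 regions with 1 ZmDDM1B list, 0 had a zmddm1b peak. The part of the choice in the low share was not tested. One of the 2 regions, on chromosome 9 at 150190905 to 150191552, was called in both zmddm1b libraries, with folds of 4.43 and 3.07. Its WT folds were 2.39 and 2.85 for ZmDDM1A and 2.39 and 3.45 for ZmAGO4. The other, on chromosome 5 at 105587648 to 105588054, was called in replicate 2 of zmddm1a (fold 1.65) and replicate 2 of zmddm1b (1.78). Its WT folds were as low, at 1.90 and 1.46 for ZmDDM1A and 1.30 and 1.45 for ZmAGO4, over backgrounds of 159 to 318 fragments.

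The share called in zmddm1a changed sharply with the ZmDDM1A fold in WT embryos. Of the 574 regions with a smaller WT fold under 3, 4 had a zmddm1a peak, or 0.697% (0.190 to 1.77). Of the 281 with a fold of 4 to 6, 9 had one (3.20%, interval 1.47 to 5.99), and of the 58 with a fold of 6 to 10, 10 had one (17.2%, 8.59 to 29.4). At a fold of 10 or more it was 17 of 21, or 81.0% (58.1 to 94.6), and 14 of these were called in both zmddm1a libraries. Regions of all 3 proteins showed the same order, with 0.446%, 3.58%, 11.5% and 69.9% (62.7 to 76.5) in these bands. The intervals of both sets overlap in every band. At the 32 regions met by replicate 1 of zmddm1a the median fold was 7.60 in the mutant and 14.6 in WT replicate 1, and the mutant fold was the lower one at 24. At the 35 met by replicate 2 the medians were 7.21 and 8.05, and the mutant fold was the lower one at 21. Each mutant library was set beside the WT library of the same number, though nothing shows that the numbers pair the samples. Regions that the mutant library did not call have no mutant fold and are left out of these counts.

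**Figure D4:**
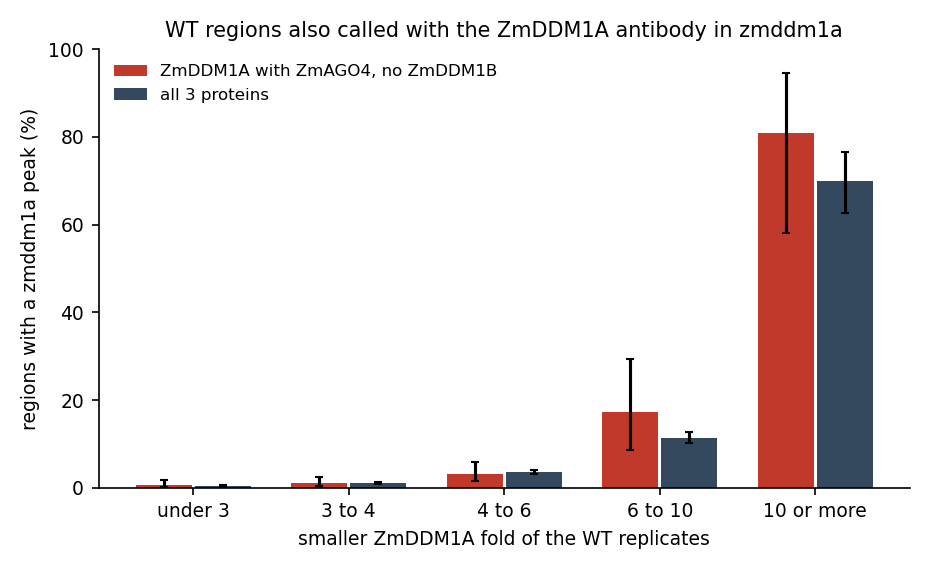
Share of WT regions that share at least 1 bp with a peak of either zmddm1a library, by the smaller ZmDDM1A fold of the WT replicates, for regions of ZmDDM1A with ZmAGO4 and no ZmDDM1B (red) and regions of all 3 proteins (dark). Error bars are exact Clopper-Pearson 95% intervals. The shares lie under 4% up to a fold of 6 and at 81.0% and 69.9% for folds of 10 or more.

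The 10 regions with the highest ZmDDM1A folds make this plain, since 9 of them had peaks in both zmddm1a libraries. The strongest lay on chromosome 7 at 157970888 to 157971786. Its ZmDDM1A folds were 46.2 and 55.6 in zmddm1a embryos, against 54.2 and 52.3 in WT embryos, and its nearest ZmDDM1B peak was 34975 bp away. Its ZmAGO4 folds differed between replicates, at 18.0 and 9.21. The ZmAGO4 pileups were close, at 156 and 134 fragments, and the backgrounds were 7.72 and 13.7. The mutant and WT values of the ZmDDM1A antibody overlapped at this region.

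The second, on chromosome 8 at 36619921 to 36621292, had ZmDDM1A folds of 24.8 and 48.3 in zmddm1a embryos and 38.3 and 40.5 in WT embryos. A ZmDDM1B peak ended 497 bp from it. On chromosome 2 a pair of these regions lay close together, at 61675707 to 61676175 and at 61679515 to 61680224. The first had folds of 14.5 and 19.4 in zmddm1a embryos and 17.6 and 19.99 in WT embryos, and the other had 14.6 and 27.1 in zmddm1a embryos and 34.6 and 30.1 in WT embryos. On chromosome 8 at 90806345 to 90808748 the folds were 31.7 and 27.8 in zmddm1a embryos and 28.8 and 27.3 in WT embryos. At the chromosome 8 regions and the first of the chromosome 2 pair the mutant and WT folds overlap, and at the other of the pair both mutant folds were lower.

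Another 4 of the 10 had lower folds in the mutant in every library. On chromosome 8 at 112814220 to 112814810 the ZmDDM1A folds were 14.7 and 20.04 in zmddm1a embryos and 22.8 and 25.8 in WT embryos. On chromosome 4 at 192665462 to 192665854 they were 16.7 and 15.9 in zmddm1a embryos and 22.3 and 22.0 in WT embryos. The region on chromosome 6 at 136821664 to 136823671 had 16.7 and 16.8 in zmddm1a embryos and 17.7 and 22.7 in WT embryos, with ZmAGO4 folds of 12.6 and 14.6. That on chromosome 6 at 108573251 to 108575248 had 7.58 and 6.78 in zmddm1a embryos and 16.8 and 16.9 in WT embryos. With 2 libraries against 2, an exact permutation test of a single region cannot go below a two-sided p of 0.333, so none is given.

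One of the 10 had no zmddm1a peak. It lay on chromosome 9 at 116367849 to 116368209, with ZmDDM1A folds of 32.6 and 26.9 and ZmAGO4 folds of 5.16 and 5.17. The ZmDDM1A pileups were 143 and 122 fragments over backgrounds of 3.41 and 3.57, the lowest of those lists, and the replicate summits lay 5 bp apart. The nearest ZmDDM1B peak was 1685 bp away. A ZmDDM1A fold of 10 or more in WT without a zmddm1a peak occurred at 3 other regions, which are named after their values were seen. That on chromosome 9 at 108595652 to 108596799 had ZmDDM1A folds of 11.9 and 11.7 and ZmAGO4 folds of 9.98 and 6.02. Those on chromosome 2 at 195473816 to 195474240 and chromosome 3 at 27839655 to 27840209 had ZmDDM1A folds of 14.6 and 10.9, and of 10.2 and 11.4.

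The regions with the highest ZmAGO4 folds included none with a zmddm1a peak among the first 10, where 3.16% of all 1423 regions had one, so that this count is near the overall share. The first, on chromosome 2 at 47668376 to 47669431, had ZmAGO4 folds of 35.1 and 33.2 and ZmDDM1A folds of 4.45 and 2.71. The next, on chromosome 9 at 104615077 to 104616340, had ZmAGO4 folds of 35.6 and 30.9, ZmDDM1A folds of 4.19 and 3.95, and no ZmDDM1B peak within 50229 bp. The remaining 3 of the 5 named (63774558 to 63775190 of chromosome 4, 64262491 to 64263309 of chromosome 3, and from 94612157 to 94613733 on chromosome 5) had ZmAGO4 folds of 23.1 to 29.0. Their ZmDDM1A folds were 2.59 to 3.98, on both sides of the median of all 1423 regions, and the region on chromosome 5 had a ZmDDM1B peak 154 bp from its edge.

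**Figure D5:**
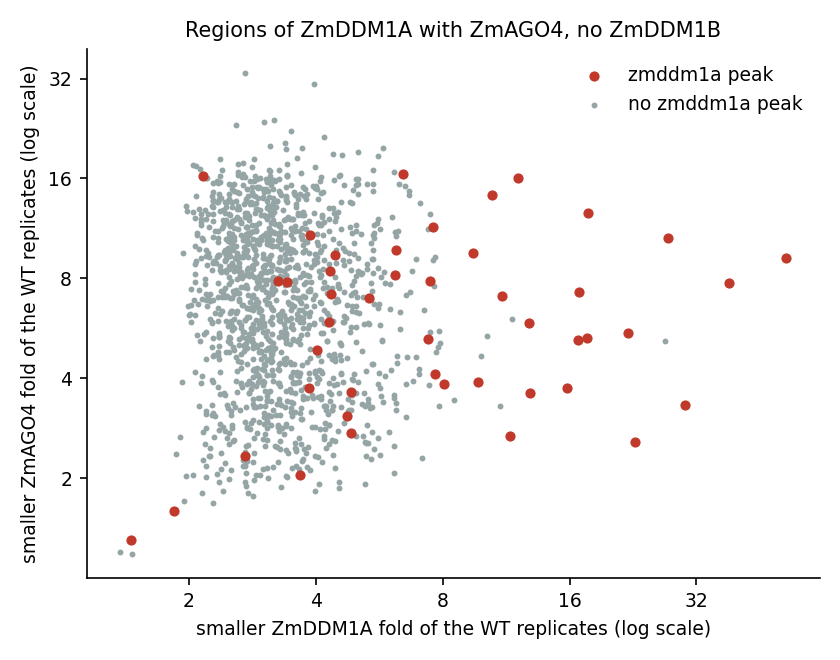
Smaller ZmDDM1A fold (x, log scale) against smaller ZmAGO4 fold (y, log scale) of the WT replicates at the 1423 regions, with the 45 regions that a zmddm1a list also called in red. Red points make up 17 of the 21 regions with a ZmDDM1A fold of 10 or more, against 3.16% of all the points.

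The 5 regions whose lowest fold of the 4 WT libraries was highest were all called in zmddm1a as well, where 3.16% of all 1423 regions were. At a smaller ZmDDM1A fold of 10 or more the share was 81.0%. This ranking also picks high ZmDDM1A folds, and the 5 regions had WT folds of 9.47 or more. They included the regions on chromosome 6 at 136821664 and chromosome 8 at 90806345 named above. The other 3 lay at 159117403 to 159119821 of chromosome 4, at 111528285 to 111530059 of chromosome 6, and from 148711256 to 148712965 on chromosome 2. The first had ZmDDM1A folds of 9.49 and 9.47 in zmddm1a embryos and 14.2 and 12.1 in WT embryos, with ZmAGO4 folds of 16.1 and 20.02. That on chromosome 6 was called in replicate 1 of zmddm1a alone, with 7.05 in zmddm1a embryos and 11.6 and 10.5 in WT embryos. That on chromosome 2 had 11.3 and 11.3 in zmddm1a embryos and 9.47 and 10.8 in WT embryos, so both mutant folds were the higher ones there.

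The 45 regions with a zmddm1a peak had a median smaller ZmDDM1A fold of 7.48, against 3.14 at the other 1378. Their median smaller ZmAGO4 fold was 5.92, against 7.11. They were about as wide, at 1070 bp against 1186 bp, and about as far from a ZmDDM1B peak, at 3976 bp against 3546 bp. Without regions that any mutant list called, 1377 regions remained, and the log2 differences to regions of all 3 proteins were −0.32 for ZmDDM1A and −0.24 for ZmAGO4.

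At the edge of the rule lay regions with barely called peaks. The weakest inside was on chromosome 7 at 30161241 to 30162046, where the second ZmAGO4 list had a −log10 q of 2.00, and a ZmDDM1B peak lay 112 bp away. The next were on chromosome 4 at 117729566 to 117730227 (2.02) and chromosome 2 at 118171147 to 118172370 (2.02). Just outside, 3 regions (4382223 to 4385249 of chromosome 5, 161084477 to 161085456 of chromosome 8, and from 6143858 to 6144702 on chromosome 2) held a ZmDDM1B peak of replicate 1 with a −log10 q of 2.12 and a fold of 2.27. Of the 1423 regions, 974 (68.4%) had a −log10 q of at least 5 in all 4 lists.

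In width the regions ran from 263 bp on chromosome 3 at 200349187 to 200349449 to 8999 bp on chromosome 1 at 257312886 to 257321884. In the widest the ZmAGO4 folds were 20.2 and 15.3, the ZmDDM1A folds 3.13 and 3.37, and the summits of the proteins lay 1884 and 1863 bp apart. In 4 regions the background was at least 10 times the lowest of the list in all 4 libraries, and 2 of these had a mutant peak. Their smaller ZmDDM1A folds were at most 1.85. Of the 24115 regions of all 3 proteins, 3 (0.0124%) had such a background, and other sets were not counted.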

How the data were processed

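Chromatin immunoprecipitation of developing W22 embryos was read from 10 deposited peak lists, each of 1 library. Per the submitters' processing notes the tools included Trim Galore, Bowtie2, Picard and MACS2 2.1.2, and the build was B73 RefGen_v4. How MACS2 was set is not given in the sources used here. The deposited lists give start, end and summit positions, a fold enrichment (a ratio made by the authors), and p-values and q-values as −log10. The smallest −log10 q lay between 2.00 and 2.12. The pileup and background at a summit were recovered as the whole-number pileup whose fold (pileup + 1) / (background + 1) and Poisson p matched the deposited values within 0.01, which held for 99.997% to 100% of WT peaks. All other values were computed with Python 3.11.15, numpy 2.4.6, pandas 2.3.3 and scipy 1.17.1, and the code was tested on simulated lists. Chromosomes were taken to end at the last peak of any list. The regions named are those with the highest smaller ZmDDM1A fold (10), ZmAGO4 fold (5) and smallest of 4 folds (5), up to 5 in both zmddm1a lists, those with a zmddm1b peak, and the extremes of width and q. Members, lists and rules were chosen with earlier results of these data known. Alternatives were a stricter q or fold, other overlap and replicate rules, and each library left out. Of the other libraries (input, IgG, H3K9me2 and mRNA-seq) none was analysed here.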

Additional observations from a re-analysis of the deposited data

How the results depend on the processing

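Over 8 results 114 alternatives were run: 55 stayed within 1.5 times the count or within the interval or replicate SD, 58 moved by more and 1 reversed. The reversal was the ZmAGO4 log2 fold difference to regions of all 3 proteins, −0.25 as reported and 0.015 when peaks had to cover 50% of a ZmDDM1A region. The causes of the moves were not tested. The number of regions was 645 at a fold of at least 4, 4246 from the union of replicates, 3450 with 1 ZmDDM1B list allowed and 2784 under 50% coverage, and leaving out 1 WT library gave 1498 to 2720. The share of ZmDDM1A-and-ZmAGO4 regions without ZmDDM1B was 6.81%, 11.4%, 12.5% and 9.84% under these 4 settings, 3.92% without regions within 1 kb of a ZmDDM1B peak, and 5.22% to 9.44% without 1 library. The ZmDDM1A log2 difference was −0.26 at −log10 q of at least 5, −0.13 at a fold of at least 4, −0.32 from the union, −0.31 with 1 ZmDDM1B list allowed, −0.33 without regions within 1 kb, −0.32 without mutant peaks, −0.32 under 50% coverage, and −0.36 to −0.29 without 1 library. The ZmAGO4 difference was −0.29 at the stricter q, −0.18 from the union, −0.22 with 1 ZmDDM1B list allowed and −0.30 to −0.19 without 1 library. The share with a zmddm1a peak was 9.92% at a fold of at least 4, 1.51% from the union, 2.09% with 1 ZmDDM1B list allowed, 0.843% when covered to 50%, and 1.73% to 3.53% without 1 library. That with a zmddm1b peak was 0% at a fold of at least 4 and otherwise stayed within its interval, at 0.0703% to 0.267% without 1 library. For both mutants the shares of other sets were not recomputed under these settings. The outer share was 55.5% at a fold of at least 4, and 51.7% to 53.3% without 1 library. The median distance to ZmDDM1B was 4268 bp at the stricter q, 6991 bp at a fold of at least 4, 5994 bp without regions within 1 kb, and 3460 to 4884 bp without 1 library.

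With only 2 libraries a group, nothing shows that the replicate numbers pair the samples: across the 1423 regions the log2 replicate ratios of ZmDDM1A and ZmAGO4 had r = 0.05. With the replicate block, in which the rule was applied to the lists of 1 number at a time and both values were averaged, the number of regions was 4376, the share without ZmDDM1B 13.5%, the log2 differences −0.31 and −0.19, the share with a zmddm1a peak 1.51% and the distance 4640 bp. GC content was not run, since no genome of this build was used here. The part of depth in the absence of ZmDDM1B was not tested.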
